A study of Mus musculus with 120 samples.

Results

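Nnt encodes nicotinamide nucleotide transhydrogenase, an enzyme of the inner mitochondrial membrane, and was described here across the livers of 30 mouse strains. Its members were all probe sets that carry the symbol Nnt: 3 of the 45037 probe sets on the array, for 1 of the 18193 genes that its 34945 probe sets with a single symbol represent. The gene was chosen from its measured values in these livers, so its levels are given as a description, without a test.

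The livers came from 10-week-old males after 4 h of fasting, and the strains were B6-Chr13TMSM, MSM, 27 further chromosome substitution strains and the control, C57BL/6J (B6). MSM is an inbred strain whose founders were wild mice caught in Japan. Each substitution strain carries 1 MSM chromosome, or the part of one that the letters C and T name as centromeric and telomeric, or the MSM mitochondrial genome (B6-mtMSM), on the B6 background. By their labels they carry the B6 genome elsewhere, no genotype was used here, and the positions where the C and T segments end are not in the labels. Every strain had 2 males and every male 2 arrays. Arrays that share an animal number were taken as 1 male, which the labels leave unsaid, and a p-value below measures only the spread between these males.

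The transhydrogenase uses the proton gradient across the inner membrane to move hydride from NADH to NADP+, and so makes NADPH inside the mitochondrion. That NADPH keeps glutathione and thioredoxin reduced, the thiols on which the removal of mitochondrial peroxide depends. C57BL/6J is known to carry a deletion of several Nnt exons that leaves it without the functional protein. Neither MSM nor the C57BL/6 substrains other than C57BL/6J are known for that deletion. Nnt lies near the telomeric end of chromosome 13. The array measures hybridisation to short oligonucleotides, and which exons these probe sets target is not given in the sources used here.

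The values are the deposited log2 signals, which ran from 6.34 to 14.82 over all probe sets with a median of 7.417. How the signals were scaled is not stated, so a difference is not read as a fold change, nor is its size set against another gene's. The SD between males had a median of 5.95e-05 over the tested genes, so the differences between arrays look compressed. By how much, and whether equally in every probe set, is not known. Each difference is also given in units of the SD between males of 1 strain, estimated over all 60 males. For the Nnt probe set 1416105_at this SD was 0.00529. The livers expressed hepatocyte markers at mean signals of 12 to 14.8. None of the 25 tested markers of 11 cell types was called in B6-Chr13TMSM, B6-Chr18MSM or B6-Chr1MSM. There 0.0586%, 0.519% and 0.377% of all genes were called, so this count is near the background and is not a result about cell types. Several cell types, such as cholangiocytes, had only 1 tested marker. In MSM 7 of the 25 tested markers were called (28% of them, near the 24.7% of all genes called there), 2 of Kupffer cells, 2 of endothelium and 1 each of stellate cells, cholangiocytes and erythroid cells, and their part in the MSM results was not tested. In whole liver, fewer cells of a type and less RNA per cell cannot be told apart.

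Nnt signal was highest in 3 strains and lowest in 1. On 1416105_at the 2 B6-Chr13TMSM males had log2 signals of 8.1227 and 8.1235, against 8.0938 and 8.0907 in the 2 B6 males. The MSM males had 8.1193 and 8.1228. The B6-Chr18MSM males had 8.1139 and 8.1115, although that strain is labelled as carrying chromosome 18, not chromosome 13, from MSM. The highest 6 of the 60 males were these 6, and none of them overlapped with any other male. B6-Chr13CMSM, with the centromeric part of the same chromosome, had 8.1006 and 8.0890, which spanned both B6 males. B6-Chr1MSM had 8.0699 and 8.0470, and these were the lowest 2 of all males.

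Set against B6, 1416105_at was 0.0309 higher in B6-Chr13TMSM, 5.84 SD between males. In MSM it was 0.0288 higher (5.45 SD). In B6-Chr18MSM it was 0.0205 higher (3.87 SD), which is 66.3% of the B6-Chr13TMSM difference. The B6-Chr13CMSM difference was 0.0026 (0.484 SD), less than 1 SD between males. In B6-Chr1MSM the signal fell by 0.0338 relative to B6, with a difference of −6.39 SD. The B6-Chr1MSM males lay far apart from each other: the difference from B6 was −0.0453 without male 1 and −0.0223 without male 2. Without the first B6-Chr13CMSM male its difference was −0.0032, and without the second 0.0083.

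**Figure D1:**
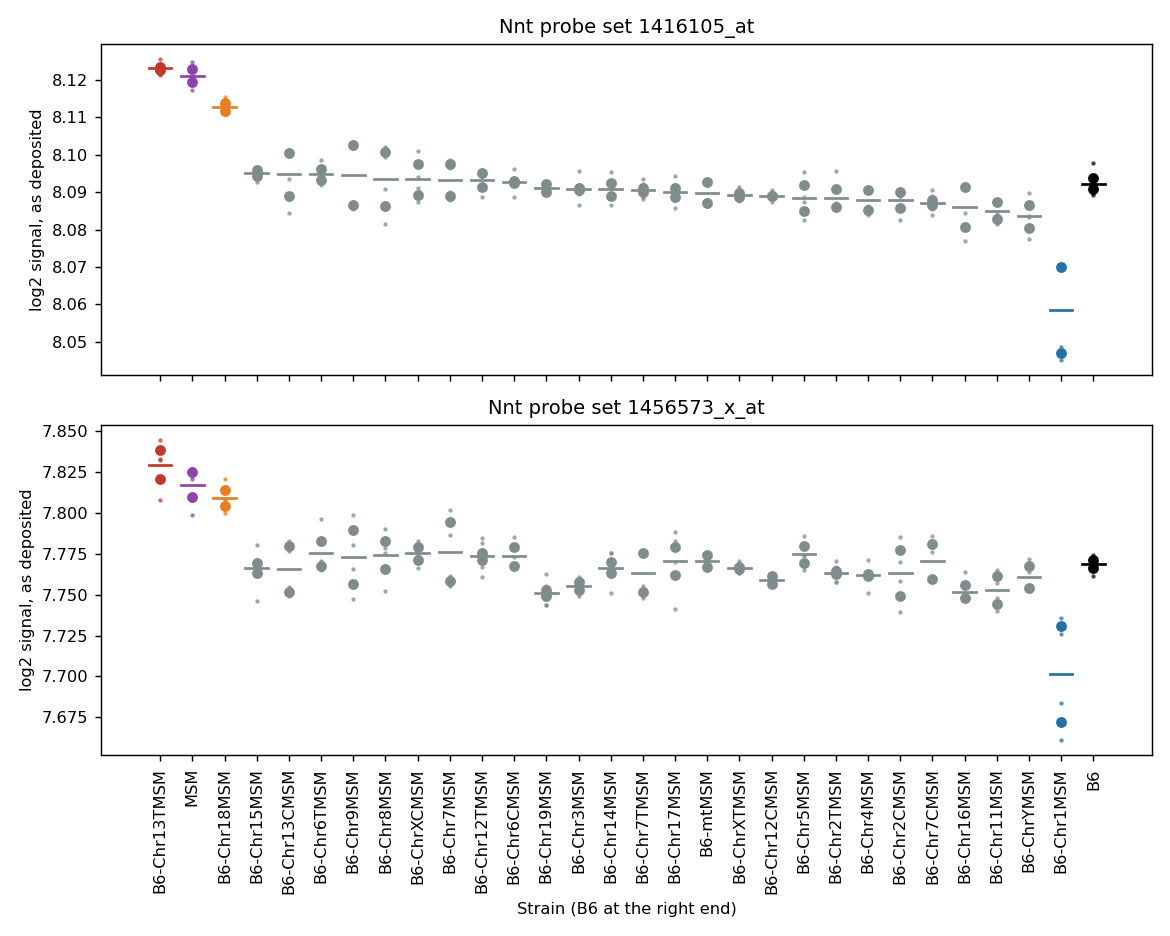
Deposited log2 signal of the Nnt probe sets 1416105_at (top) and 1456573_x_at (bottom) in 30 strains, ordered by the mean of 1416105_at with B6 at the right end. Large points are males, small points single arrays and bars strain means (2 males each). B6-Chr13TMSM, MSM and B6-Chr18MSM lie above, and B6-Chr1MSM below, the other 26 strains in both panels, whose males run from 8.080 to 8.103 on 1416105_at.

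The remaining 26 strains, B6 among them, formed a continuous band. Their 52 males lay between 8.080 and 8.103 with a median of 8.090, and the strain means between 8.0835 in B6-ChrYMSM and 8.0950 in B6-Chr15MSM. B6 was 13th from the highest, with 12 strains above it. In the order of the 30 means, the males of neighbouring strains overlapped in 26 of 29 pairs. The 3 gaps lay between MSM and B6-Chr18MSM, between B6-Chr18MSM and B6-Chr15MSM, and between B6-ChrYMSM and B6-Chr1MSM. B6-Chr13TMSM and MSM therefore did not differ beyond the spread of their males, and B6 did not differ from its neighbours. The SD between the 2 arrays of a male was 0.0032.

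A second probe set, 1456573_x_at, gave the same 4 strains at the ends. The suffix x marks a probe set whose probes can also match other transcripts. The B6-Chr13TMSM males had 7.838 and 7.821, against 7.766 and 7.771 in B6. MSM had 7.810 and 7.825, and B6-Chr18MSM 7.814 and 7.804. The 6 males of these strains again took the highest 6 places of the 60. B6-Chr13CMSM had 7.780 and 7.752 and again spanned B6. B6-Chr1MSM had 7.731 and 7.672, the lowest 2 of all males. The differences from B6 were 0.0608 in B6-Chr13TMSM (4.50 SD), 0.0484 in MSM (3.59 SD), 0.0403 in B6-Chr18MSM (2.99 SD), −0.0030 in B6-Chr13CMSM (−0.226 SD) and −0.0672 in B6-Chr1MSM (−4.98 SD). Here too the B6-Chr18MSM difference was 66.3% of that in B6-Chr13TMSM, and MSM reached 79.7%. The males of MSM overlapped with those of both B6-Chr13TMSM and B6-Chr18MSM on this probe set, so the order within the 3 high strains is not resolved by it. The B6-Chr1MSM difference was −0.0965 without male 1 and −0.0380 without male 2. That of B6-Chr13CMSM was −0.0169 without male 1 and 0.0108 without male 2.

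Over the 30 strain means the 2 probe sets had a Pearson correlation of 0.959. The slope of 1456573_x_at on 1416105_at was 1.86 in deposited units, which is not read as a larger change because the scaling of each probe set is not known. Without the 4 strains at the ends the correlation was 0.568 over 26 strains. Deviations of the 60 males from their strain means had a correlation of 0.786. Both probe sets are read from the same arrays and the same RNA, so these correlations describe the arrays and carry no test.

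**Figure D2:**
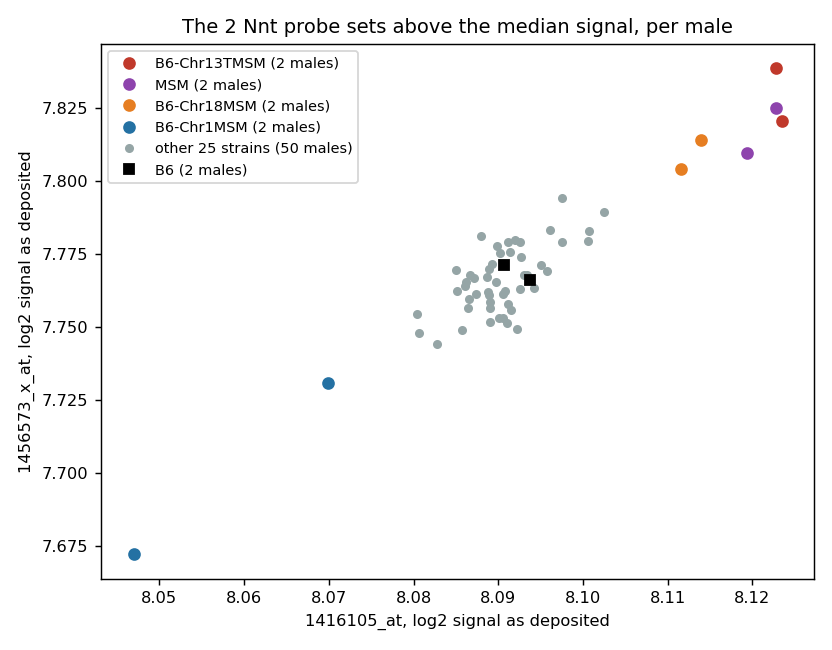
Log2 signal of 1456573_x_at against 1416105_at in 60 males, as deposited. Each point is 1 male. The B6-Chr13TMSM, MSM and B6-Chr18MSM males lie at the upper right, the B6-Chr1MSM males at the lower left, and the males within each strain are scattered along the same diagonal (r = 0.786 for deviations from strain means).

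The third probe set, 1432608_at, showed no such pattern. Its mean was 7.3616, below the median of all values in each of the 60 males, and its males spanned 2.52e-05 log2 units in all. The B6-Chr13TMSM males had 7.361551 and 7.361557, against 7.361551 and 7.361540 in B6. Its strain means had a correlation of 0.406 with those of 1416105_at and 0.290 with those of 1456573_x_at. Whether it detects the transcript at all cannot be read from these values.

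The other genes of chromosome 13 show what else differed along the chromosome in the 2 strains that carry a part of it. limma fitted 11949 genes, 1 probe set each, and called a gene at a Benjamini-Hochberg adjusted p below 0.05. In B6-Chr13TMSM against B6 it called 7 genes (0.0586% of those tested), 6 of them besides Nnt. The call of Nnt itself is no test, because the gene was chosen from these values. All 6 lay on chromosome 13, of 420 tested there besides Nnt, and 0 of the 11528 elsewhere were called, where 412 had an unadjusted p below 0.05. With 1 male left out, whichever of the 4 it was, limma called 1 or 2 genes of chromosome 13 besides Nnt. By gene order they lay in the telomeric end, with 1, 2 and 3 of them in the last 3 of 10 equal groups. In B6-Chr13CMSM against B6 limma called 14 genes (0.117%), 11 of them on chromosome 13 (5 to 7 with 1 male left out). These lay in the other end, with 10 in the first 4 groups and 1 in the sixth. Nnt held place 415 of 421 in this order, in the last group, where B6-Chr13CMSM had no called gene.

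**Figure D3:**
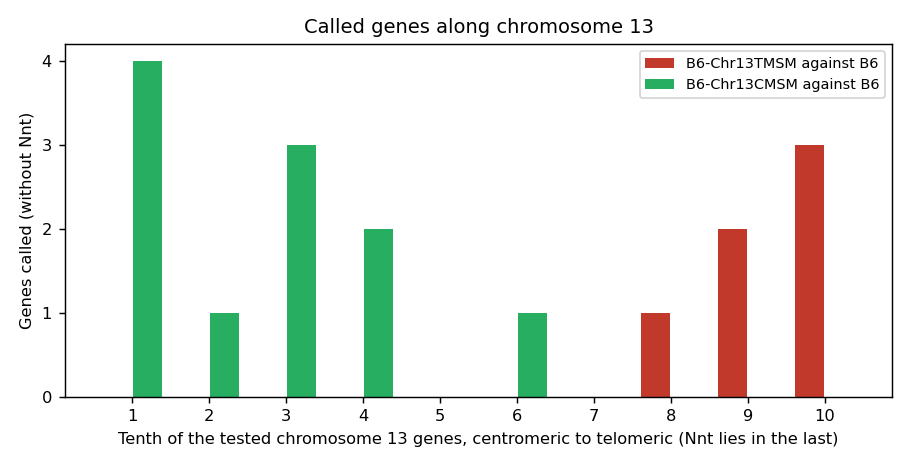
Number of chromosome 13 genes called by limma (adjusted p below 0.05) in each of 10 groups of tested genes in chromosome order, Nnt left out. Bars show B6-Chr13TMSM and B6-Chr13CMSM against B6. The B6-Chr13TMSM calls lie in groups 8 to 10, the last of which holds Nnt, and the B6-Chr13CMSM calls in groups 1 to 6.

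Of the 6 genes called in B6-Chr13TMSM, 4 fell and 2 rose. Bhmt, betaine-homocysteine methyltransferase, which remethylates homocysteine in liver, had 13.1811 and 13.1797 in B6-Chr13TMSM, against 13.1852 and 13.1850 in B6 (difference −0.00474 ± 0.00074 SE, −6.36 SD, limma adjusted p = 0.002371). The mitochondrial oligopeptidase gene Nln fell by 0.00288 ± 0.00049 (−5.82 SD, limma adjusted p = 0.005465). Arsb, the lysosomal arylsulfatase B, fell by 0.00213 ± 0.00040 (−5.31 SD, limma adjusted p = 0.01344). Mrps36, named for the mitochondrial ribosome and a part of the 2-oxoglutarate dehydrogenase complex, rose by 0.000509 ± 0.000094 (5.39 SD, limma adjusted p = 0.01261). For each of these 4 genes both B6-Chr13TMSM males lay on one side of both B6 males. Without 1 male, Nln, Arsb and Mrps36 missed the threshold in each of the 4 fits, and Bhmt passed it only without B6-Chr13TMSM male 1 (limma adjusted p = 0.006522 there and up to 0.2176 otherwise). In MSM the same 4 genes passed against B6 in the same direction, each with 1 male of either strain left out as well. After quantile normalization none of the 4 calls in B6-Chr13TMSM was kept (limma adjusted p = 0.1549 for Nln and 0.4812 for Arsb). Bhmt then had no difference from B6 left in B6-Chr13TMSM or MSM, so it could not be called in either. Arsb turned direction in MSM. None of the 4 was called in B6-Chr18MSM, where the differences from B6 lay between −0.506 SD for Bhmt and 0.945 SD for Mrps36, or in B6-Chr1MSM.

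The genes next to Nnt were examined in the same fits. They were the 10 tested genes on its centromeric side and the 6 on its telomeric side, where the tested genes of the chromosome end. In B6-Chr13TMSM 2 of the 16 were called, 1 higher and 1 lower, against 0.0586% of all genes. On chromosome 13 1.43% of the 420 genes were called, and 3 of the 42 in the last group, in which the neighbours lie. Of the 16, 5 had an unadjusted p below 0.05, beside 45 of the 420 and 3.83% of all genes. The 2 called neighbours are counted among the 6 genes above. In MSM, where 24.7% of all genes were called, 3 of the 16 were called. In B6-Chr18MSM, where 0.519% of all genes were called, 1 was called. In B6-Chr13CMSM, where 0.117% of all genes were called, limma called 0 of the 16 (2 at an unadjusted p below 0.05, beside 3.90% of all genes). In B6-Chr1MSM, where 0.377% of all genes were called, the count was also 0 (1 at an unadjusted p below 0.05, beside 6.31%).

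4833420G17Rik, the second tested gene on the telomeric side, was called in all 3 strains with high Nnt, in the opposite direction. Its probe set carries the suffix s, used where probes are shared between transcripts. The B6-Chr13TMSM males had 9.08613 and 9.08630, against 9.08848 and 9.08827 in B6. The MSM males had 9.08651 and 9.08709, and the B6-Chr18MSM males 9.08716 and 9.08744. These were the lowest 6 of the 60 males, and the 3 strains did not overlap with each other or with any other strain. B6 had the highest mean of the 30 strains.

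Against B6, 4833420G17Rik fell by 0.00216 ± 0.00020 SE in B6-Chr13TMSM (−11.0 SD, limma adjusted p = 3.853e-08). It fell by 0.00158 in MSM (−8.01 SD, limma adjusted p = 2.731e-07), 73.1% of the B6-Chr13TMSM difference. In B6-Chr18MSM it fell by 0.00107 (−5.43 SD, limma adjusted p = 0.003894), 49.6% of that difference. The calls in B6-Chr13TMSM and MSM held with each male left out in turn. After quantile normalization of the arrays the B6-Chr13TMSM difference was −0.00239 (limma adjusted p = 0.2498) and the MSM difference was 0.00076 (limma adjusted p = 0.1692), a reversal of direction. The B6-Chr18MSM difference was then −0.00129 (limma adjusted p = 0.7647). The B6-Chr18MSM call was lost without B6-Chr18MSM male 1 or B6 male 1, with limma adjusted p-values of 0.0169 to 0.2063 over the 4 fits, and against the mean of the other consomic strains in place of B6 (limma adjusted p = 0.05531). B6-Chr13TMSM was also below B6-Chr13CMSM, by −0.00180 (limma adjusted p = 7.11e-07), in a comparison that called 21 genes (0.176%), 16 of them on chromosome 13 (6 without B6-Chr13TMSM male 1).

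As deposited, the 3 low strains also differed from each other in 4833420G17Rik, in comparisons chosen after the data were seen. The difference of B6-Chr13TMSM from B6-Chr18MSM was −0.00109 (limma adjusted p = 0.004283), where 0.226% of all genes were called. Its difference from MSM was −0.00058 (limma adjusted p = 0.02759), where 26.3% of all genes were called. That of MSM from B6-Chr18MSM was −0.00051 (limma adjusted p = 0.04865), where 29.2% were called. Nnt on 1416105_at stood in the reverse order, with B6-Chr13TMSM above MSM above B6-Chr18MSM, though the males of the first pair overlapped. The order of 4833420G17Rik changed after quantile normalization, with differences from B6 of 0.00076 in MSM and −0.00129 in B6-Chr18MSM. B6-Chr1MSM, the strain with low Nnt, had 9.08781 and 9.08777, below B6 by −2.95 SD (limma adjusted p = 0.447). Over the 30 strain means the correlation of 4833420G17Rik with Nnt was −0.658, and 0.207 without MSM, B6-Chr13TMSM and B6-Chr18MSM (27 strains). Deviations within strains had a correlation of 0.187 over the 60 males. All these points share arrays.

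**Figure D4:**
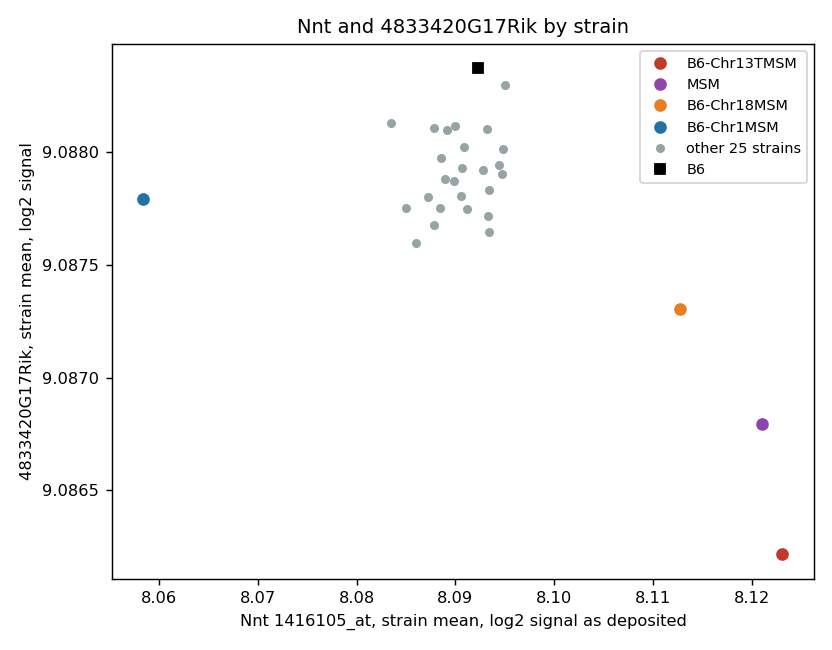
Strain means of 4833420G17Rik against those of Nnt (1416105_at), both as deposited log2 signals, with 1 point for each of 30 strains (2 males each). B6-Chr13TMSM, MSM and B6-Chr18MSM lie apart at the lower right, B6-Chr1MSM at the left, and the other strains show no downward trend (r = 0.207 without the 3 at the lower right).

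Arl15, a small GTPase of the ARF-like family and the eighth tested gene on the centromeric side, was the other called neighbour in B6-Chr13TMSM. Its males had 8.19304 and 8.19325 in B6-Chr13TMSM, against 8.19178 and 8.19179 in B6, and it rose by 0.00136 ± 0.00024 SE (5.59 SD, limma adjusted p = 0.008481). None of the 4 fits with a male left out kept that call (limma adjusted p-values of 0.1274 to 0.4151). After quantile normalization the rise of Arl15 in B6-Chr13TMSM was 0.00127 and was not called (limma adjusted p = 0.7866). In MSM the Arl15 difference was 0.978 SD (limma adjusted p = 0.4938). MSM instead rose in Pelo, which rescues stalled ribosomes (3.43 SD, limma adjusted p = 0.0107), and in the chemokine gene Ccl28 (limma adjusted p = 0.04797). The Pelo call was lost without MSM male 2 or B6 male 2 and the Ccl28 call without any 1 of the 4 males.

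The genes adjoining Nnt on either side, the mitochondrial ribosomal protein gene Mrps30 and Paip1, whose product binds poly(A)-binding protein, were not called in any strain. In B6-Chr13TMSM they stood 0.991 SD and 1.20 SD from B6. Ndufs4, a subunit of respiratory complex I, stood at 1.81 SD. Hmgcs1, the cytosolic HMG-CoA synthase of cholesterol synthesis, had 10.1202 and 10.1206 in B6-Chr13TMSM and 10.1158 and 10.1313 in B6-Chr13CMSM, against 10.1446 and 10.1437 in B6. The males of both strains lay below B6, by −0.0237 (limma adjusted p = 0.9998) and −0.0206 (limma adjusted p = 0.8574), and neither passed. Over all 29 strains set against B6, the only call among the 16 neighbours outside B6-Chr13TMSM, MSM and B6-Chr18MSM was Zfp131, a zinc finger gene, which rose in B6-Chr7MSM (limma adjusted p = 0.04518), where 1.42% of all genes were called.

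**Figure D5:**
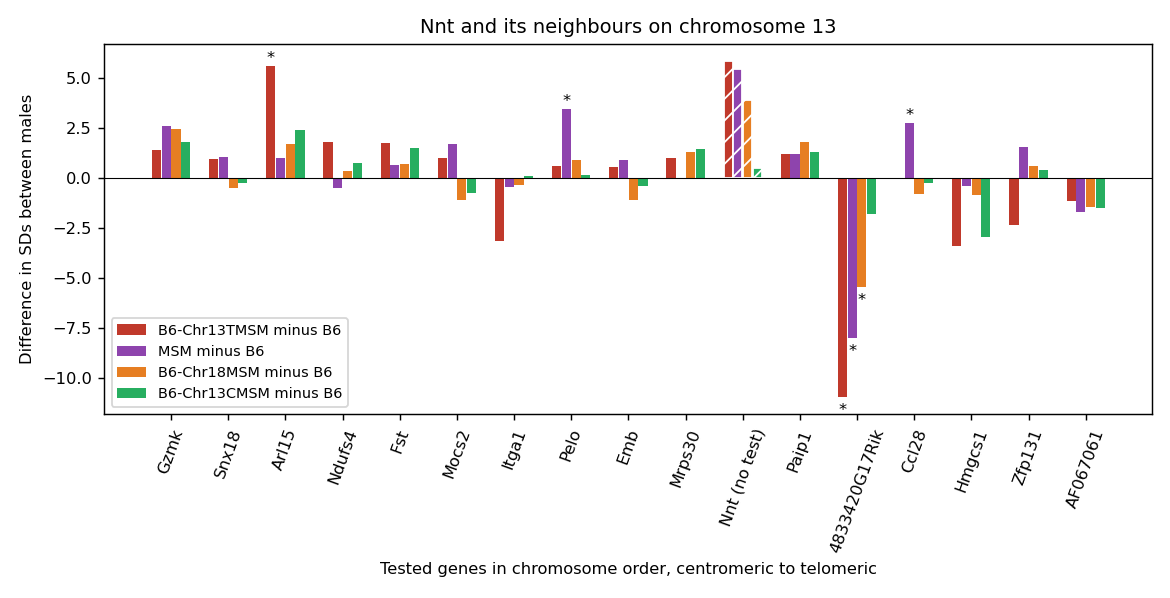
Difference from B6 in units of the SD between males for Nnt (hatched, without a test) and the 16 tested genes next to it in chromosome order, in B6-Chr13TMSM, MSM, B6-Chr18MSM and B6-Chr13CMSM. Asterisks mark limma calls at an adjusted p below 0.05. 4833420G17Rik is at −11.0, −8.01 and −5.43 SD in the first 3 strains.

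B6-Chr18MSM and B6-Chr1MSM differ from B6 elsewhere in the genome by their labels. Of the 62 genes called in B6-Chr18MSM against B6, 16 lay on chromosome 18 (of 279 tested there) and 1, 4833420G17Rik, on chromosome 13. Nnt was not among the 62, which is no test of it either. In B6-Chr1MSM 44 of the 45 called genes lay on chromosome 1 (of 661 tested there), and the remaining one was Nnt, whose own call is no test here because the gene was chosen from these values. A male of B6-Chr18MSM was the highest or lowest of the 60 males in 3.43% and 1.56% of the genes, one of B6-Chr1MSM in 2.04% and 2.08%, and one of B6 in 2.22% and 1.16%. The highest such share was 28.2%, in male 1 of B6-Chr9MSM.

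Genes of NADPH supply, thiol defence, NAD metabolism and mitochondrial protein quality were examined in 5 lists with 64 members, of which 57 were tested. They are the redox genes of the sections below, although not all of them supply or spend NADPH. The list of mitochondrial NADPH supply also holds Idh3a, Idh3b and Idh3g, of the NAD-dependent isocitrate dehydrogenase. In B6-Chr13TMSM, the strain with the highest Nnt signal, limma called 0 of the 57, where 0.0586% of all genes were called, and 4 had an unadjusted p below 0.05, as did 3.83% of all genes. The median moderated t of the 57 was −0.164, beside 0.0257 over all genes. The counts were also 0 in B6-Chr13CMSM (0.117% of all genes called) and in B6-Chr18MSM (0.519%), with 4 at an unadjusted p below 0.05 in each, beside 3.90% and 9.12% of all genes. With so few calls among all genes, a count of 0 in 57 is near the background and is not a result about these lists. In B6-Chr1MSM, where 0.377% of all genes were called, 1 was called, Kmo, kynurenine monooxygenase of the pathway from tryptophan to NAD (−4.44 SD, limma adjusted p = 0.03095).

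In B6-Chr13TMSM single members kept close to B6. Idh2, the NADP-dependent isocitrate dehydrogenase of the mitochondrion, stood at 2.29 SD, and Idh3a, of the NAD-dependent enzyme, at −1.89 SD. These were the extremes of the 8 tested genes on the list of mitochondrial NADPH supply. Of the 12 tested genes of peroxide and thiol defence the extremes were −0.576 SD and 1.98 SD, with Prdx3, the mitochondrial peroxiredoxin, at 0.063 SD, Gsr, glutathione reductase, at 0.314 SD, and Sod2, manganese superoxide dismutase, at 0.888 SD. The malic enzyme gene Me1, which makes NADPH in the cytosol, stood at −2.28 SD. The smallest limma adjusted p of any list in B6-Chr13TMSM was 0.9998. With 2 males in each strain the SE of a difference is about the SD between males itself, so most of these values lie within 2 SE of no difference.

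In MSM, which differs from B6 in the whole genome, 23 of the 57 were called (40.4%, against 24.7% of all genes tested), 11 higher and 12 lower. Without MSM male 2 the count was lower, and the share of all genes called in that fit is not given here. With all males the median moderated t of the 57 was 0.256, beside 0.583 over all genes. On the list of mitochondrial NADPH supply Idh2 rose (6.32 SD, limma adjusted p = 1.492e-05), as did Idh3a of the NAD-dependent enzyme (11.6 SD, limma adjusted p = 1.663e-10). Nadk2, the mitochondrial NAD kinase, fell (−2.82 SD, limma adjusted p = 0.03529). Of the 12 genes of peroxide and thiol defence 1 rose, the mitochondrial thioredoxin gene Txn2 (4.64 SD), and 4 fell. Among those were Slc25a39, a carrier that brings glutathione into mitochondria (−6.06 SD), the methionine sulfoxide reductase gene Msra (−5.55 SD) and Txnrd2, the mitochondrial thioredoxin reductase (−3.60 SD).

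In cytosolic NADPH supply 0 of 10 genes rose and 2 fell in MSM, Me1 (10.2697 and 10.2727 in MSM, against 10.2971 and 10.2865 in B6) and Idh1. Of the 17 genes of NAD and NADP synthesis and use, 5 rose and 4 fell. Haao, of the pathway from tryptophan to NAD, fell furthest in SD (−10.9), and Nmnat1 (7.33 SD), Sirt4 (4.54 SD) and Sirt5 (4.49 SD) rose. Of the 10 genes of mitochondrial protein quality 3 rose, the chaperone genes Dnaja3 (8.84 SD) and Hspe1 (6.39 SD) and the protease gene Yme1l1 (8.53 SD), and Trap1 fell (−3.06 SD). Nadk2 and Idh1 missed the threshold in each of the 4 fits that left out 1 male. Those of Txnrd2 were lost without MSM male 2 or B6 male 2, of Me1 without MSM male 1 or B6 male 1, and of Trap1 without MSM male 1, MSM male 2 or B6 male 1. After quantile normalization Txn2, Txnrd2 and Trap1, and Arsb on chromosome 13, had MSM differences in the opposite direction. The MSM calls of Msra and Nadk2 were lost there as well (limma adjusted p = 0.7261 and 0.5679). Slc25a39 and Idh1 had no difference between MSM and B6 left after that normalization, so they could not be called there.

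Apart from B6-Chr13TMSM, B6-Chr13CMSM and MSM, 26 strains were set against B6, B6-Chr18MSM and B6-Chr1MSM among them. Between 0 and 2 of the 57 genes were called in each, 14 calls in 12 strains and none in 14, where 0.405% of the tests over all genes and these strains were called. Of the 14 calls, 10 were of a gene on the chromosome that the strain is labelled with and 4 were of a gene elsewhere. Over all genes, 44 of the 45 calls in B6-Chr1MSM and 16 of the 62 in B6-Chr18MSM lay on the labelled chromosome. In 12 of the 14 redox calls the gene was also called in MSM in the same direction, 9 of them on the labelled chromosome. Neither share was worked out over all calls of the 26 strains, so these counts are not read as traits of the 14 calls. The 5 with the lowest adjusted p were Haao, which fell in B6-Chr17MSM (limma adjusted p = 2.696e-07), Slc25a39, which fell in B6-Chr11MSM (limma adjusted p = 8.155e-07), Nmnat1, which rose in B6-Chr4MSM (limma adjusted p = 3.237e-06), Idh3a, which rose in B6-Chr9MSM (limma adjusted p = 8.464e-06), and Yme1l1, which rose in B6-Chr2CMSM (limma adjusted p = 0.0008044). All 5 lie on the labelled chromosome. The 4 calls elsewhere were all lower than B6. Me1 of chromosome 9 fell in B6-Chr2CMSM (limma adjusted p = 0.00825), Nadk2 of chromosome 15 in B6-Chr5MSM (limma adjusted p = 0.03404), and Idh1 of chromosome 1 in B6-Chr3MSM (limma adjusted p = 0.04843). Idh3a of chromosome 9 fell in B6-Chr19MSM (limma adjusted p = 0.04477), opposite to its direction in MSM. The comparisons of MSM and of these 26 strains share the 2 B6 males, so calls in the same direction are not independent. Some MSM calls were lost with the mean of the other consomic strains in place of B6. They were those of Me1, Nadk2, Idh1 and Trap1 (limma adjusted p = 0.06221, 0.332, 0.5802 and 0.0991).

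Of 5 tested genes known to differ between C57BL/6 substrains, as Nnt does, 0 were called in B6-Chr13TMSM or B6-Chr13CMSM, where 0.0586% and 0.117% of all genes were called, with 1 and 0 at an unadjusted p below 0.05. In MSM 2 of the 5 were called, against 24.7% of all genes. Wdfy1 rose (5.78 SD, limma adjusted p = 5.239e-05). Nlrp12, an innate immune regulator, fell, with 7.451 and 7.479 in MSM, against 7.897 in both B6 males (−6.97 SD, limma adjusted p = 3.154e-06). MSM and B6 differ in sequence, and probe mismatch and transcript level cannot be told apart in any gene that lies on an MSM segment. Whether Nnt and 4833420G17Rik lie on that of B6-Chr13TMSM is not in the labels.

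Few genes followed Nnt over the strains. Among 11948 genes, Pearson's correlation of strain means with 1416105_at had a median of 0.0312, exceeded 0.7 in 1 gene and was below −0.7 in 1. The highest was Gnpda1, glucosamine-6-phosphate deaminase, a gene of chromosome 18 (0.726 over 30 strains). It stood 0.0092 above B6 in MSM, 0.0017 above it in B6-Chr13TMSM and 0.0065 above it in B6-Chr18MSM. Next came Arfgef2 (0.661), Gpbp1 (0.657), Mrps36 (0.644), Cnppd1 (0.632), Afg3l1 (0.628), Adnp2 (0.626), Anapc5 (0.618), Atp9a (0.612) and Hps4 (0.591). The lowest were Bhmt (−0.728), Nsa2 (−0.682), 4833420G17Rik (−0.658), Mppe1 (−0.652) and Tpgs2 (−0.647). Of these 15 genes 5 lie on chromosome 13, which holds 420 of the 11948 genes, and 4 on chromosome 18, which holds 279. The genes were picked by their correlation over strains in which B6-Chr13TMSM and B6-Chr18MSM stand high. These counts are therefore partly built in and are no test. Without the 4 strains at the ends of the Nnt order, none of the 10 highest genes was still among the 10 highest, and Gnpda1 had a correlation of 0.352. All strain means come from the same arrays.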

How the data were processed

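Per the labels, total RNA of each liver was labelled with biotin and hybridised to Affymetrix mouse arrays. The authors deposited 1 table of log2 signals for 120 arrays, and no source used here gives its summary method, log base or normalization. The base was read from the range, and the array medians (7.4158 to 7.4168) show that the arrays had been scaled to each other. Of the 45037 probe sets, 932 with several symbols and 9160 with none were set aside, and 34741 of the 34945 with 1 symbol matched a gene of the RefSeq table for GRCm38.p6, which was used for names and gene order only. Coordinates were not used, because nothing names the build of the table.

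Values of the 2 arrays of each male were averaged. Each of 18193 genes was represented by its probe set of highest mean, and genes with at least 2 males above 7.417 were tested. limma 3.58.1 in R 4.3.3 fitted 1 mean per strain over 60 males, with 30 residual and 0.592 prior degrees of freedom. p-values were adjusted by Benjamini-Hochberg within each comparison. All comparisons with B6 share its 2 males. The number of males, 2 in each strain, limits the precision. Descriptions used Python with pandas and NumPy. Named were the Nnt probe sets, the tested genes next to Nnt (up to 10 on each side), up to 4 called members of each list in B6-Chr13TMSM and MSM by absolute t, the 10 genes with the highest and 5 with the lowest correlation to Nnt, and the called genes of chromosome 13 in B6-Chr13TMSM; single list members near B6, the called list members of other strains and other genes were added after their values were seen. The members and lists were chosen with earlier results of these data known. The procedure was tested on simulated data. The alternatives were another normalization, other filters and probe sets, other treatments of arrays, other samples in the fit, another reference, other moderation and leaving out each male. The comparisons of B6-Chr18MSM and B6-Chr1MSM, the comparisons of 4833420G17Rik between strains, and the correlations without the strains that stand apart were chosen after seeing the data.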

Additional observations from a re-analysis of the deposited data

Results flagged for a closer look

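Among the 60 sets of 4 arrays formed by 30 strains and the Nnt probe sets 1416105_at and 1456573_x_at, 3 held an array far from the other 3 by Dixon's criterion. With 4 independent arrays chance would reach it in about 1 set in 20. Each set holds 2 arrays of each of 2 males, so that rate does not apply here. On 1416105_at, an array of B6-Chr15MSM male 2 was low at 8.0926, with the other 3 arrays of the strain at 8.0955 to 8.0960. On 1456573_x_at, an array of B6-Chr16MSM male 2 was high at 7.7638, with the others at 7.7472 to 7.7487, and an array of B6-Chr6TMSM male 2 was high at 7.7963, with the others at 7.7653 to 7.7703. None of these 3 strains is among the 4 at the ends of the Nnt order.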

How the results depend on the processing

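The higher Nnt signal of B6-Chr13TMSM, MSM and B6-Chr18MSM and the lower one of B6-Chr1MSM kept their direction on both probe sets under every alternative run for them. Leaving out a male gave −0.0453 to −0.0223 for B6-Chr1MSM and −0.0032 to 0.0083 for B6-Chr13CMSM on 1416105_at, and −0.0965 to −0.0380 and −0.0169 to 0.0108 on 1456573_x_at. The correlation of the probe sets was 0.929 with the first array of each male, 0.931 without MSM and the chromosome 13 strains, and 0.568 without the strains at the ends. Of the 10 genes most like Nnt, 1 was kept after quantile normalization, 3 with first arrays, 2 without MSM, 2 by Spearman's rho and 0 without the strains at the ends.

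The counts depended more on the processing. The share of all genes called under each setting is not given beside them, so they are not read as results about the members. Quantile normalization moved the median moderated t of MSM to 6.05, against 0.583 as deposited, and called 9785 genes higher and 344 lower there. Chromosome 13 calls were then 0 in B6-Chr13TMSM, 7 in B6-Chr13CMSM, 348 in MSM and 9 between B6-Chr13TMSM and B6-Chr13CMSM. Neighbour calls were 0, 12 in MSM, 0 between the chromosome 13 strains and 0 in B6-Chr18MSM, and redox calls 1 in B6-Chr13CMSM and 35 in the 26 strains. The MSM difference turned direction for 4833420G17Rik (0.00076), Arsb (0.00119), Txn2 (−0.00076), Txnrd2 (0.00173) and Trap1 (0.00335). The cause was not tested. With every probe set on its own, chromosome 13 calls were 10 in B6-Chr13TMSM and 25 between the chromosome 13 strains.

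First arrays alone gave 3 chromosome 13 calls in B6-Chr13TMSM, 4 in B6-Chr13CMSM, 50 in MSM and 8 between the chromosome 13 strains, 1 neighbour in B6-Chr13TMSM and 0 in B6-Chr18MSM, and 15 redox calls in MSM and 6 in the 26 strains. All arrays with the male as a random block gave 11, 20 and 29 chromosome 13 calls (B6-Chr13TMSM, B6-Chr13CMSM and between them), neighbour calls of 1 in B6-Chr13CMSM and 2 between them, and redox calls of 3 in B6-Chr13CMSM and 52 in the 26 strains. The mean of the other consomic strains in place of B6 gave 12, 20 and 183 chromosome 13 calls (B6-Chr13TMSM, B6-Chr13CMSM, MSM), 0 neighbours in B6-Chr18MSM, and redox calls of 1 in B6-Chr13CMSM and 27 in the 26 strains. Fitting only the strains compared, with fewer degrees of freedom, gave 0 chromosome 13 calls in B6-Chr13TMSM, B6-Chr13CMSM and between them, 44 in MSM, 0 neighbours in each comparison with a call, and 15 redox calls in MSM.

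With a male left out, the lone male was assumed to vary like those of other strains. Chromosome 13 calls were then 1 to 2 in B6-Chr13TMSM, 5 to 7 in B6-Chr13CMSM, 47 to 74 in MSM and 6 to 13 between them. Neighbour calls were 1 in B6-Chr13TMSM, 1 to 2 in MSM and 0 to 1 in B6-Chr18MSM, and redox calls 15 to 17 in MSM and 5 to 6 in the 26 strains. No paired analysis was possible because the animal numbers are not shared between strains.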
